A study of Mus musculus with 60 samples.

Results

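The baseline chromatin of the mouse sciatic dorsal root ganglion was described from the 4 peak lists of the sham-operated animals: H3K9ac, H3K27ac and H3K27me3 chromatin immunoprecipitation (ChIP-seq) and ATAC-seq. Every protein-coding gene of chromosomes 1 to 19, X and Y in the RefSeq annotation of GRCm38 (21887 genes) was classified by which assays had a peak within 1 kb of either of its ends. The lists came from 9 of the 60 samples of the series. C57BL/6 mice of 6 to 8 weeks underwent sham surgery on the sciatic nerve, and the L4 to L6 ganglia were collected and flash frozen 24 hours later. Each histone mark was measured in 2 samples, each a pool of ganglia from 10 mice, with input controls; ATAC-seq was measured in 3 samples of 1 mouse each. The replicates of an assay had been pooled into 1 list by the authors, so no spread between replicates could be given and no test was made. The tissue was whole ganglion, which holds the cell bodies of sensory neurons together with satellite glia, Schwann cells, vessels, connective tissue and immune cells.

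H3K9ac and H3K27ac are acetyl marks laid on histone H3 at active promoters, H3K27ac also at active enhancers. H3K27me3 is written by Polycomb repressive complex 2 and in differentiated cells covers silent genes, above all the transcription factors of other lineages. ATAC-seq reads DNA that a transposase can reach, which includes promoters, enhancers and insulators whether or not the gene is transcribed. Promoters that are rich in CpG dinucleotides are typical of housekeeping and developmental genes, while promoters of many tissue-restricted genes are poor in CpG.

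Promoters of 7 genes, chosen after the states were known, are shown as examples of the main states. They are given with the 250 bases before the annotated start, from RefSeq (GRCm38.p6), 5′ to 3′ on the gene's strand, with every CpG in capitals. Rps6 (a ribosomal protein) and S100b (a glial calcium-binding protein) were acetylated and open. Isl1 (a sensory neuron transcription factor) and Zic1 (a transcription factor of the dorsal neural tube and cerebellum) were open with H3K27me3. Trpv1 (the capsaicin receptor) was open only, Alb (liver albumin) had H3K27me3 only, at its downstream end, and the olfactory receptor gene Olfr16 had no peak.
Rps6, chr4:86857368-86857617, minus strand: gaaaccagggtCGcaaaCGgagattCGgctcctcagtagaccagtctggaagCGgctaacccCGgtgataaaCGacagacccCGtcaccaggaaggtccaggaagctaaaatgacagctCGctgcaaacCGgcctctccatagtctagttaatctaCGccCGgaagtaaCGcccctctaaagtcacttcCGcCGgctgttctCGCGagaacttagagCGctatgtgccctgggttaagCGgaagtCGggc
S100b, chr10:76253586-76253835, plus strand: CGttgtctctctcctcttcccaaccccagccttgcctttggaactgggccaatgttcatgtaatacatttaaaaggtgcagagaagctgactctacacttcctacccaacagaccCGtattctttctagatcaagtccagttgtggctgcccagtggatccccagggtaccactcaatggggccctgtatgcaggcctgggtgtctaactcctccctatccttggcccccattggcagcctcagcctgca
Isl1, chr13:116309689-116309938, minus strand: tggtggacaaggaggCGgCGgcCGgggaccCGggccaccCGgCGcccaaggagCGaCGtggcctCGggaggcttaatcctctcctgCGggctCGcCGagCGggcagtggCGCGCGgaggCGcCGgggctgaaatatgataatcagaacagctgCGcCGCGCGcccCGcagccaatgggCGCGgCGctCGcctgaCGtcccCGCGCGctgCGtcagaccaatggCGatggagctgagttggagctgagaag
Zic1, chr9:91365769-91366018, minus strand: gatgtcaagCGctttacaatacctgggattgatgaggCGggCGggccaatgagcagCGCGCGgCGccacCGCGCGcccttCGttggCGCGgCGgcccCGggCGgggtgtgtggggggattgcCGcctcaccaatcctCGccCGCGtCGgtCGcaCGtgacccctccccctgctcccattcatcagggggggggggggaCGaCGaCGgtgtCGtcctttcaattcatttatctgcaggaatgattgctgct
Trpv1, chr11:73233899-73234148, plus strand: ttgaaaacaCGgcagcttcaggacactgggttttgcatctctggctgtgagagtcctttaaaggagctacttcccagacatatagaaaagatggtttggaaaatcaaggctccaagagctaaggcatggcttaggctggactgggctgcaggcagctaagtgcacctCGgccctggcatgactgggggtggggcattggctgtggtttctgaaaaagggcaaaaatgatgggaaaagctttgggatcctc
Alb, chr5:90460620-90460869, plus strand: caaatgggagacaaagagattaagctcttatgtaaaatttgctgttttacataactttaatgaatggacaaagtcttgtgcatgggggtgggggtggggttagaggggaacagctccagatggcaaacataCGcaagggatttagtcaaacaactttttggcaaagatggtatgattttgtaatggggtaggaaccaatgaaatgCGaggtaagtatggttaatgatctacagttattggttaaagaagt
Olfr16, chr1:172956518-172956767, plus strand: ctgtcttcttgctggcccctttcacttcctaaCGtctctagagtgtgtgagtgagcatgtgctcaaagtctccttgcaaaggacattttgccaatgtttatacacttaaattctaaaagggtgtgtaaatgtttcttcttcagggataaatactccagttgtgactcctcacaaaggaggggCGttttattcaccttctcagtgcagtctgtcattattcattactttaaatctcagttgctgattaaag
The 250 bases held 19 CpG at Rps6, 33 at Isl1 and 27 at Zic1. At S100b, Trpv1, Alb and Olfr16 they held 2 each. S100b is thus an acetylated, open promoter with few CpG, and Isl1 and Zic1 are CpG-rich promoters without an acetyl peak.

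The 4 lists differed in size and in what their strongest peaks marked, which bears on every state below. They held 50332 H3K9ac, 43803 H3K27ac, 122953 H3K27me3 and 153556 ATAC peaks. The highest number in the peak names was above the number of peaks in each list (114123 in H3K27ac), so the lists hold part of a longer numbering. By the authors' −log10 p values, 56.2% of the strongest quintile of H3K9ac peaks lay within 1 kb of a gene end and 79.4% overlapped an ATAC peak, and both shares were lower in the weaker quintiles. H3K27ac stood apart: in its strongest quintile 15.6% of peaks were at a gene end, 25.3% overlapped ATAC and 16.7% overlapped H3K9ac, against 32.3%, 49.2% and 52.1% in the second quintile. Without that quintile, no state's count moved by over 1.5 times. A gene counts as acetylated by either mark, and leaving out the whole H3K27ac list moved only 1 count that far. The check therefore says little about results that rest on H3K27ac alone. H3K27me3 peaks were weak, with a median fold of 1.11 in the authors' list and 1613 peaks (1.31%) at a q of at most 0.05.

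**Figure D1:**
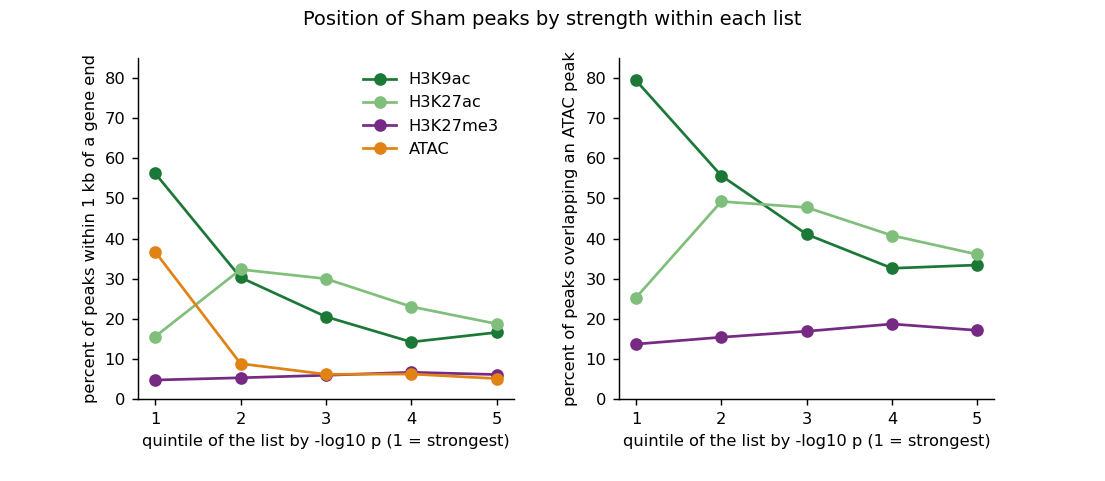
Share of Sham peaks within 1 kb of a gene end (left) and overlapping an ATAC peak (right), in percent, for each quintile of a list ordered by the authors' −log10 p, 1 being the strongest. H3K9ac and ATAC are highest in the first quintile, H3K27ac is lowest in its first quintile on both measures, and H3K27me3 stays between 4.78% and 6.71% at gene ends.

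Open chromatin was at the ends of 15197 genes (69.4%), H3K9ac at 10737 (49.1%), H3K27ac at 8819 (40.3%) and H3K27me3 at 6256 (28.6%). As a background, each list was moved by 1 Mb along the chromosomes. The moved lists reached 29.3% of genes for ATAC, 10.3% for H3K9ac, 10.1% for H3K27ac and 29.2% for H3K27me3. The 3 marks of activity were therefore 2.37 to 4.74 times as frequent at gene ends as in the moved lists, whereas H3K27me3 was as frequent as in its moved list (ratio 0.979). Wilson 95% intervals of these shares were within 1 percentage point and cover counting error only.

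Genes with both acetyl marks and open chromatin were the largest of the 16 combinations, with 6244 genes (28.5%), which is 2.91 times the number the product of the single shares gives. Genes with no peak were the next, with 4545 genes, 3.13 times the product. Put together in 8 states, with acetylated meaning H3K9ac or H3K27ac and open meaning ATAC, 8823 genes (40.3%) were acetylated and open without H3K27me3 and 2314 (10.6%) were acetylated and open with H3K27me3. A further 2248 genes (10.3%) were open with H3K27me3 and not acetylated, 1812 (8.28%) were open only, and 1521 (6.95%) had H3K27me3 only. Acetylation without open chromatin was rare, at 451 genes (2.06%) without and 173 genes (0.79%) with H3K27me3. No peak at either end was found for 20.8% of genes.

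**Figure D2:**
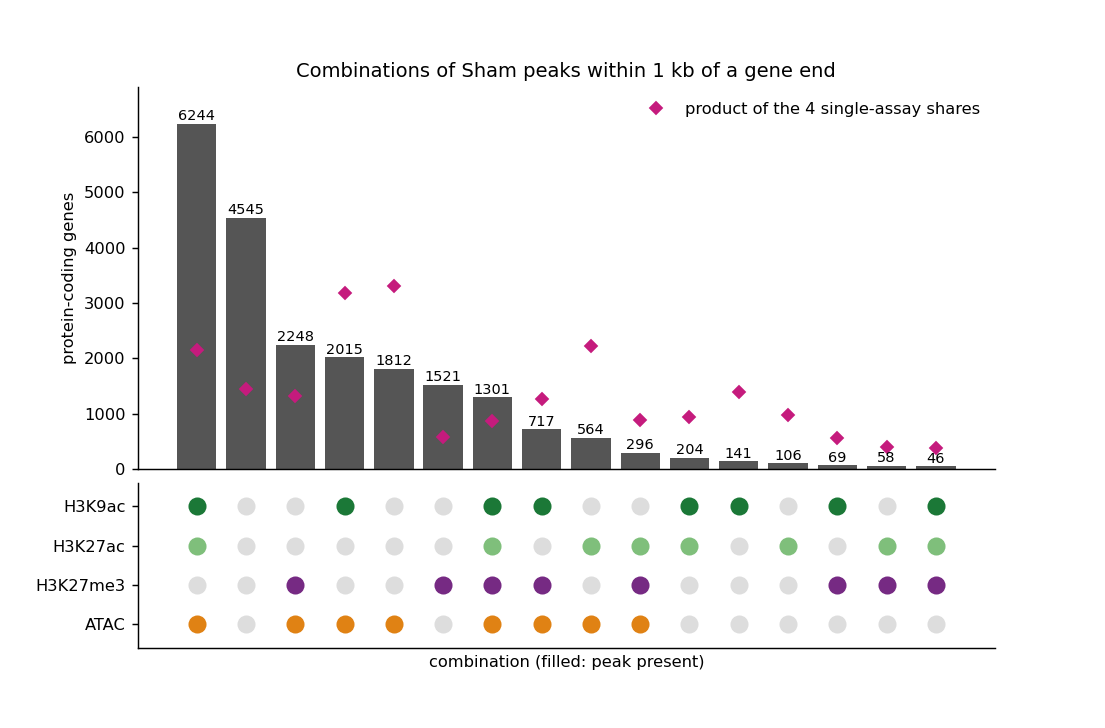
Number of protein-coding genes in each of the 16 combinations of Sham peaks within 1 kb of a gene end (bars), with the number the product of the 4 single-assay shares gives (diamonds). Filled circles under a bar mark the assays present. Both acetyl marks with ATAC (6244 genes) and no peak (4545) lie above their diamonds, and every combination with an acetyl peak but no ATAC peak lies below.

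Nearly all acetylated genes were open, while many open genes were not acetylated. Of genes with H3K9ac, 95.7% also had ATAC, and of genes with H3K27ac, 95.3%. Of genes with ATAC, 67.6% had H3K9ac and 55.3% had H3K27ac. H3K27ac was present at 72.6% of H3K9ac genes, and H3K9ac at 88.4% of H3K27ac genes. These pairs were on the same gene end in 97.2% to 98.2% of the genes that had both, and the peaks themselves overlapped in 90.5% to 94.8%. Beside the product of the shares, H3K9ac with ATAC was 1.38 times as frequent, H3K27ac with ATAC 1.37 and the acetyl marks together 1.80. With both lists moved by 1 Mb these ratios were 2.46, 2.23 and 5.81, so the coincidence is not read as particular to gene ends. H3K9ac with H3K27me3 was seen at 2133 genes, 0.695 times the product of the shares, and H3K27ac with H3K27me3 at 1701 genes, 0.675 times. With both lists moved by 1 Mb the ratios were 0.734 and 0.788, also below 1, so the values at the true positions are not read as mutual avoidance of the marks at gene ends. In only 53.4% and 54.2% of the genes with both were both marks on the same end, and in 37.2% and 35.5% did the peaks overlap. At 995 of the 2133 genes the acetyl mark was on one end and H3K27me3 on the other. Where both marks met on one end, a whole-tissue list cannot tell whether they lie in the same cells or in different ones.

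Active marks sat mostly at the start of genes, and H3K27me3 was spread more evenly over both ends. Among 14059 genes of over 4 kb with a known strand, 52.9% had H3K9ac at the start and 8.24% at the other end. For H3K27ac the shares were 42.8% and 7.29%, and for ATAC 71.8% and 25%. H3K27me3 was at the start of 19% and at the other end of 16.2%, and 65.3% of the genes with the mark had it at the start. Among the acetylated and open genes with H3K27me3, the mark was at the start of 53.4% and at the other end of 59.1%, against 80.0% and 50.9% among the genes that were open with H3K27me3 and not acetylated.

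The acetylated and open state held the genes every cell uses. Of 84 cytosolic ribosomal protein genes, 75 (89.3%) had H3K9ac, 66 (78.6%) H3K27ac and 81 (96.4%) ATAC, and 6 (7.14%) had H3K27me3. Oxidative phosphorylation genes, which encode the respiratory chain and ATP synthase, had H3K9ac in 72 of 82, ATAC in 76 and H3K27me3 in 7. Proteasome genes had H3K9ac in 36 of 39, ATAC in 38 and H3K27me3 in 4. Leading the combination of both acetyl marks and ATAC were Coq7 (ubiquinone synthesis), Ercc4 (a DNA repair nuclease subunit), Trib2 (a pseudokinase), Tnfsfm13 and Rps6. At Coq7 the authors' fold was 6.67 for H3K9ac, 40.3 for H3K27ac and 8.12 for ATAC. At Rps6 the folds were 5.14, 24.0 and 4.01. In each of the 3 lists, these 5 genes ranked at or above the percentile 96.4.

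Immediate early genes, the transcription factors and regulators that cells switch on within minutes of a stimulus, were mostly acetylated and open in sham ganglia. H3K9ac was present at 20 of 24 (83.3%), H3K27ac at 20 (83.3%), ATAC at 23 (95.8%) and H3K27me3 at 5 (20.8%). Over all genes the shares were 49.1%, 40.3%, 69.4% and 28.6%, so H3K27me3 was not more frequent here than elsewhere. Klf6 had an H3K9ac fold of 7.32, Fos of 6.97 and Fosb of 6.62, all strong within a list whose median was 3.39. Jun had the highest H3K27ac fold of these genes, 44.3. Egr3, Arc and Nr4a2 were acetylated and open with H3K27me3. Npas4 and Egr4 were open with H3K27me3 and no acetylation, and Egr2, a Schwann cell and immediate early factor, had no peak within the window. The 19 axon growth genes were also mostly acetylated, 14 (73.7%) with H3K9ac, 14 (73.7%) with H3K27ac and 18 (94.7%) with ATAC. These are above the same shares of all genes. Atf3, Jun, Klf6, Klf7, Stat3 and Myc were acetylated and open. Sox11, Stmn4 and Sprr1a were open with H3K27me3. Gap43, the growth cone protein that sensory neurons make in quantity, had no peak of any assay within the window. Samples were taken 24 hours after sham surgery, so a response to the operation or the dissection and the resting state cannot be told apart here.

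Genes for proteins that write, read or remove these marks mostly had acetylation and open chromatin at their ends. Of 34 genes of Polycomb and acetylation enzymes, 25 (73.5%) had H3K9ac, 26 (76.5%) H3K27ac and 31 (91.2%) ATAC. The shares of all genes were 49.1%, 40.3% and 69.4%. The Polycomb repressive complex 2 genes Ezh1, Ezh2 and Suz12 were acetylated and open, and Eed was so with a narrow H3K27me3 peak of 237 bp. The Polycomb readers Cbx2 and Cbx8, on chromosome 11, both carried acetylation, open chromatin and H3K27me3, and Bmi1 was open with H3K27me3 and without acetylation.

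Most satellite glia genes were acetylated, whereas few pan-neuronal genes were, although most of these were open and most had H3K27me3. Of 14 satellite glia genes, 13 had H3K27ac, 11 H3K9ac and 11 (78.6%) ATAC, and 4 (28.6%) had H3K27me3. Of 17 Schwann cell genes, 10 had H3K27ac, 9 H3K9ac and 12 (70.6%) ATAC. Over all genes 69.4% had ATAC and 28.6% H3K27me3, so H3K27me3 at satellite glia genes and ATAC at Schwann cell genes were at those shares. Of 18 pan-neuronal genes, 17 (94.4%) were open, but 1 had H3K9ac, 3 had H3K27ac and 11 (61.1%) had H3K27me3. In all, 9 of them (50%) were open with H3K27me3 and not acetylated. Acetylation by either mark was thus found at 92.9% of satellite glia, 64.7% of Schwann cell and 16.7% of pan-neuronal genes, beside 53.7% of all genes. The Wilson intervals of the H3K27ac share, which cover counting error only, were 68.5% to 98.7% for satellite glia and 5.84% to 39.2% for pan-neuronal genes. The list members were chosen with earlier results of these data known, so the intervals are no test of the difference. A lower share of a cell type in the tissue and a lower mark in each of its cells cannot be told apart in these lists.

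Among glial genes, Pmp22, a myelin protein, had the widest H3K9ac peak of the glial lists, 4245 bp at a fold of 5.67, with no ATAC peak. Glul (glutamine synthetase) had an H3K9ac fold of 6.06, Cnp of 5.67 and Erbb3, the neuregulin receptor, of 4.12. Sox10, the factor that specifies peripheral glia, was acetylated (H3K27ac fold 6.27) and open, with an H3K27me3 peak of 3435 bp. Kcnj10, the potassium channel of satellite glia, was open with H3K27me3 and had no acetyl peak. Gjb1 had no peak; it is on the X chromosome, which is described further down.

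Among neuronal genes, the neurofilament genes Nefl and Nefm, Prph (peripherin), Ina, Snap25, Stmn2, Stmn3, Elavl4 and Uchl1 all had ATAC and H3K27me3 and no acetylation. Nefh, Map2, Syt1 and Avil were open only, Map2 with an ATAC fold of 6.84. Tubb3 carried all 4 marks and Elavl3 had H3K27ac and ATAC. At Snap25, a synaptic vesicle fusion protein, the H3K27me3 peak had a −log10 q of 1.36 in the authors' list, and it was the only pan-neuronal gene with a q of at most 0.05. At Uchl1 the authors' −log10 p of H3K27me3 was 0.83, so most of these calls rest on weak peaks. With the 43803 strongest H3K27me3 peaks alone, 2 of the 18 pan-neuronal genes had the mark, while their acetylated count stayed at 3 and that of satellite glia genes at 13.

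Sensory neuron transcription factors were open in 16 of 16 and had H3K27me3 in 12. Isl1, a LIM homeodomain factor, lay in an H3K27me3 peak of 27.7 kb (chr13:116288722-116316459) with an ATAC peak of 3.49-fold, and Isl2, Tlx3, Shox2 and Pou4f3 were in the same state. Pou4f1 (Brn3a) and Hmx1 also had H3K27ac, Pou4f1 at a fold of 4.25. Klf7 and Etv1 were acetylated and open without H3K27me3, and Maf had all 4 peaks. H3K9ac was found at 3 of the 16.

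The sodium channels of pain neurons were open without any histone peak. Scn9a, Scn10a, Scn11a and Trpv1 had ATAC only, with ATAC folds from 2.12 at Trpv1 to 4.25 at Scn9a. Cacna2d1, the gabapentin target, was also open only, at 4.42. P2rx3, the ATP receptor of nociceptors, had an H3K9ac fold of 6.64 and an H3K27ac fold of 5.97 beside H3K27me3. Kcna1 also carried all 4 peaks, and Piezo2, the touch receptor, had H3K9ac and ATAC. In all, 18 of 24 channels (75%) were open and 9 (37.5%) had H3K27me3, not far from the 69.4% and 28.6% of all genes, while 5 (20.8%) had H3K9ac and 3 (12.5%) H3K27ac, beside 49.1% and 40.3%. Trpm8, the cold receptor, lay in an H3K27me3 peak of 16.4 kb and Trpa1 had H3K27me3 only.

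Of 14 neuropeptide genes, 8 (57.1%) were open, below the 69.4% of all genes, 8 (57.1%) had H3K27me3, beside 28.6%, 2 had H3K9ac and 1 had H3K27ac. Tac1 (substance P), Calca (CGRP), Npy and Penk were open with H3K27me3, and Npy lay in a peak of 14.2 kb. Nmb was the 1 acetylated and open gene without H3K27me3. Of 9 neurotrophin and GDNF receptor genes, 6 (66.7%) were open, near the 69.4% of all genes, and 6 had H3K27me3, beside 28.6%. Ntrk2, the BDNF receptor, had a strong H3K27ac peak (fold 25.5) with H3K27me3, and Ngfr, the low-affinity neurotrophin receptor that glia also carry, was acetylated and open.

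Genes of other cell types are read beside the shares of all genes, 49.1% for H3K9ac and 69.4% for ATAC. Fibroblast and pericyte genes had H3K9ac in 8 of 14 (57.1%), close to all genes, among them Col1a1, Col1a2, Col3a1 and Pdgfrb. Endothelial genes were open in 13 of 15 (86.7%) and had H3K9ac in 7 (46.7%), the latter also close to all genes, with Cldn5, Kdr and Eng also carrying H3K27ac. Macrophage genes had H3K9ac in 3 of 19 (Cd68, Cd14 and Spi1), ATAC in 10 and H3K27me3 in 8. Lymphocyte genes had H3K9ac in 0 of 14, for which the Wilson interval reaches 21.5%, H3K27ac in 4, ATAC in 9 and H3K27me3 in 9. Of genes that the ganglion should not use, liver genes had H3K9ac in 0 of 14, H3K27ac in 2, ATAC in 5 and H3K27me3 in 8. Skeletal muscle genes had H3K9ac in 2 of 14, H3K27ac in 4, ATAC in 10 and H3K27me3 in 8. Germline genes had H3K9ac in 2 of 17, H3K27ac in 2, ATAC in 11 and H3K27me3 in 11. The pan-neuronal genes had H3K9ac in 1 of 18 and H3K27me3 in 11. They were thus in the range of these off-tissue lists by acetylation and by H3K27me3, and above them by ATAC.

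**Figure D3:**
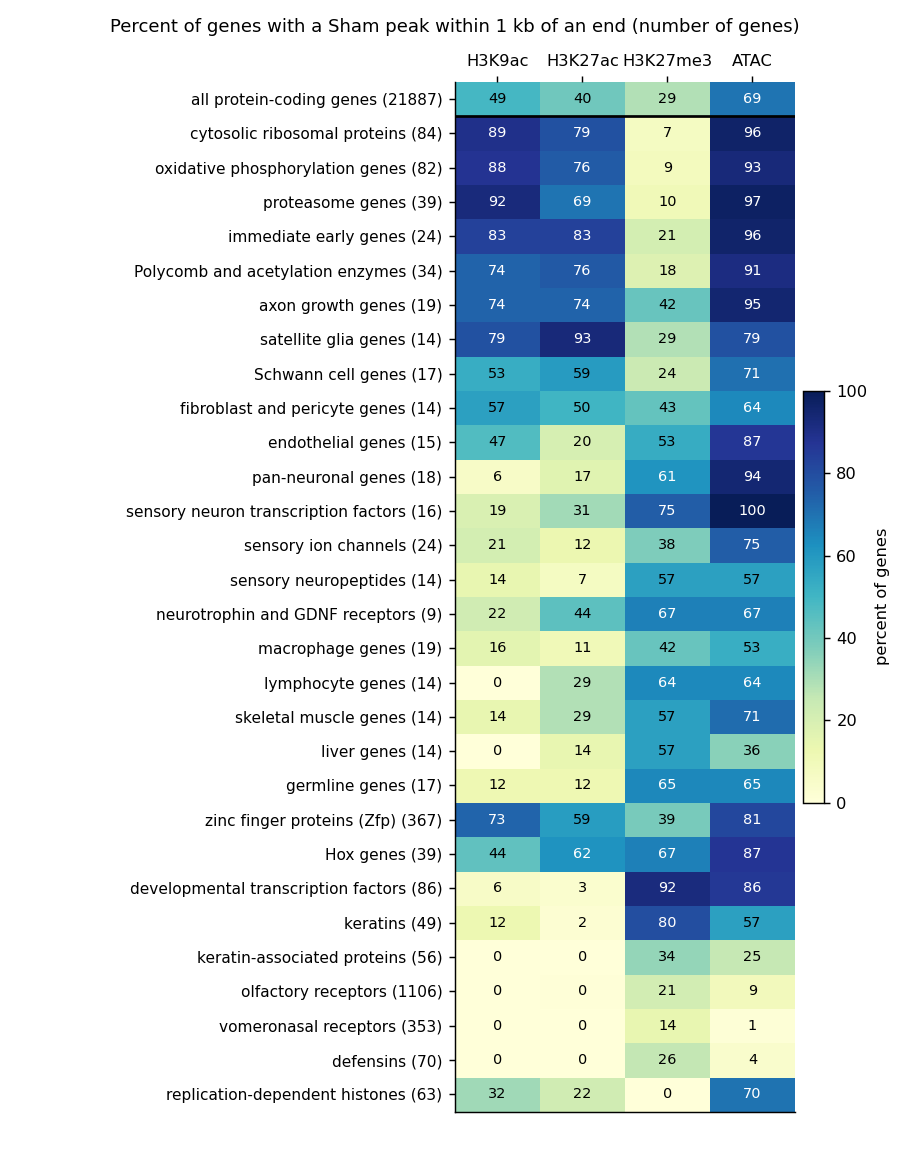
Percent of genes of each list with a Sham peak of each assay within 1 kb of an end, with the number of genes in brackets and all protein-coding genes in the top row. Housekeeping and satellite glia lists are dark in H3K9ac, H3K27ac and ATAC. Pan-neuronal genes and the sensory neuron and developmental transcription factors are dark in ATAC and H3K27me3. Olfactory and vomeronasal receptors, near the bottom, are pale throughout.

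Developmental transcription factors of many lineages were the clearest H3K27me3 genes. Of 86 such genes, 79 (91.9%) had H3K27me3 beside 28.6% of all genes, and 74 (86%) were open. H3K9ac was found at 5 and H3K27ac at 3. In all, 63 of them (73.3%) were open with H3K27me3 and not acetylated, a state that held 10.3% of all genes, and 10 had H3K27me3 only. The peaks were broad: the widest H3K27me3 peak at the ends of these genes had a median width of 29.6 kb (quartiles 19.5 and 37.8 kb), beside 2.01 kb over all genes with the mark. A peak of at least 10 kb was found at 69 of the 86 (80.2%) and at 577 of all genes (2.64%).

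Homeobox and other lineage genes were among those with the broadest peaks. A peak of 86.3 kb (chr15:102888632-102974980) covered Hoxc10 to Hoxc13, 73.5 kb covered Zic1 and Zic4, 70.3 kb covered En2 and Cnpy1, 66.7 kb covered Sall1 and 64.3 kb covered Gata4, the heart and gut factor. Barhl2, Hand2, Dlx5 with Dlx6, and the cell cycle inhibitors Cdkn2a with Cdkn2b had peaks of 45.3 to 57.1 kb. Such peaks were not strong by the authors' measures. The peak over Sall1 had a fold of 1.04 and a −log10 p of 0.81, and 1 of the 86 genes had a q of at most 0.05, namely Six2 with a peak of 27.9 kb. When each list was limited to its 43803 strongest peaks by −log10 p, 9 of the 86 kept an H3K27me3 peak, while a minimum width of 5 kb left 74. By width, 12.9% of the widest quintile of H3K27me3 peaks lay at a gene end and 33.5% overlapped ATAC, against 3.05% and 7.70% of the narrowest quintile. A wider peak also has more length in which to meet a gene end. Per Mb of peak the order was reversed, with 33.9 peaks at gene ends in the widest quintile and 108 in the narrowest. Both measures depend on width, so no preference of wide peaks for gene ends is read from them.

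Some neuronal lists shared the broad peaks in part, as did lists of other kinds. Sensory neuron transcription factors had a median width of 15.7 kb, with 7 of 16 genes (43.8%) at 10 kb or more. Pan-neuronal genes had a median of 5.37 kb, with 3 of 18 at 10 kb or more (Rbfox3, Nefl and Ina). Endothelial genes (5.185 kb) and immediate early genes (5.79 kb) had medians like it, so this width is not particular to neuronal genes. Sensory ion channels (2.41 kb) and neurotrophin and GDNF receptors (2.88 kb) were nearer the 2.01 kb of all genes. Olfactory receptors (1.33 kb), vomeronasal receptors (1.18 kb), germline genes (1.07 kb) and ribosomal protein genes (1.38 kb) had narrow peaks below the median of all genes.

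**Figure D4:**
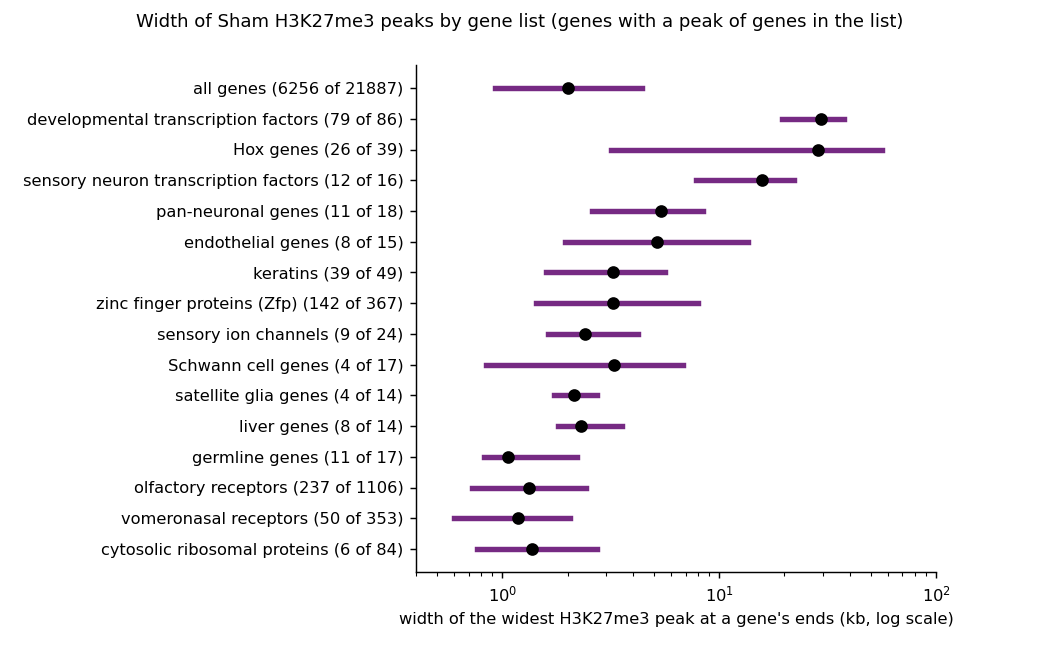
Width of the widest Sham H3K27me3 peak at a gene's ends, in kb on a log scale, by gene list; points are medians, lines run between the quartiles, and the brackets give genes with a peak of genes in the list. Developmental transcription factors (29.6 kb), Hox genes (28.6 kb) and sensory neuron transcription factors (15.7 kb) lie to the right of all genes (2.01 kb).

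In the Hox clusters, paralog groups 2 to 13 are described here, and acetylation among them lay in groups 2 to 10. Hox genes give cells their position along the body axis, with low paralog numbers used from the hindbrain on and the highest in the tail and limb ends. Of the 27 genes of paralog groups 2 to 10, 23 had H3K27ac, 16 had H3K9ac and 14 had H3K27me3. Of the 9 genes of groups 11 to 13, none had either acetyl mark, 9 had H3K27me3 and 8 had ATAC. The boundaries between groups were drawn after the values were seen, and the 9 genes share 4 H3K27me3 peaks, so they are not 9 separate measurements. In the Hoxc cluster, Hoxc8, Hoxc9 and Hoxc10 carried all 4 peaks and Hoxc11, Hoxc12 and Hoxc13 had H3K27me3 and ATAC. In the Hoxa cluster the same change fell between Hoxa10 and Hoxa11. In Hoxd it fell earlier, since Hoxd9 had H3K27ac and Hoxd10 did not, and Hoxd4 and Hoxd8 were open only. Hoxb13, the only Hoxb gene above group 9, had H3K27me3 alone, in a peak of 65.5 kb.

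**Figure D5:**
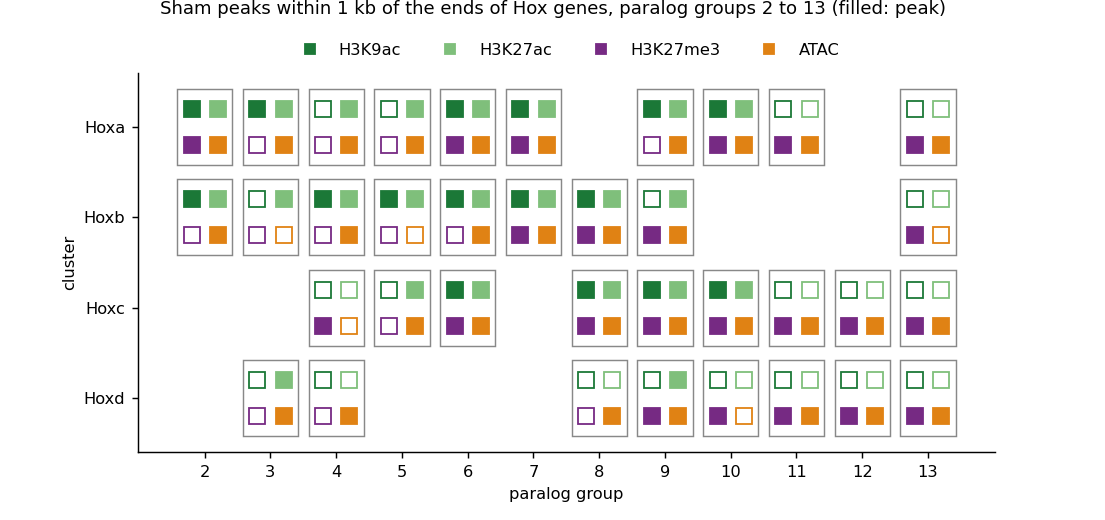
Sham peaks within 1 kb of the ends of the Hox genes of paralog groups 2 to 13, by cluster (rows) and paralog group (columns); each box is 1 gene and its 4 squares are filled where the assay had a peak. Acetyl squares are filled in most of groups 2 to 10 and in none of groups 11 to 13, where H3K27me3 is filled in all 9 genes.

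Zinc finger genes named Zfp carried H3K27me3 more often at the end away from the start than at the start. Of 367 genes, 269 (73.3%) had H3K9ac and 142 (38.7%) H3K27me3, and 99 (27%) were acetylated and open with H3K27me3, a state of 10.6% of all genes. Among the 297 with a known strand and over 4 kb, H3K9ac was at the start of 214 and at the other end of 8. H3K27me3 was at the start of 43 and at the other end of 100, and at 77 it was at the other end alone. Zfp53 and Zfp780b were among the 5 leading genes of the combination of all 4 peaks, together with Uspl1, Fars2 (mitochondrial phenylalanyl-tRNA synthetase) and Gulp1 (an engulfment adaptor). At Zfp53 the authors' folds were 5.85 for H3K9ac, 7.21 for H3K27ac, 1.34 for H3K27me3 and 7.33 for ATAC. These H3K27me3 and ATAC peaks of Zfp53 lay at its start and the acetyl peaks at its other end, the reverse of the list's order. At Zfp780b the H3K27me3 peak lay at the other end and the acetyl and ATAC peaks at the start. The Zfp genes are repeated in sequence, and how reads with several matches were handled is not given in the sources used here.

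The 14 neighbouring protocadherin genes from Pcdhga4 to Pcdhga12 on chromosome 18 were the longest unbroken row of genes in the acetylated and open state with H3K27me3. Protocadherins of this cluster give neurons surface identities, and the 14 genes share their downstream exons, so a peak there counts for each of them. In the beta cluster next to it, 7 genes from Pcdhb3 to Pcdhb9 in a row had H3K27me3 only.

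As a group, genes that were open only had weaker ATAC peaks than genes with both acetyl marks and ATAC. Their median ATAC fold was 2.27 at a median percentile of 78.2 within the list, against 3.83 and 96.5. Genes with H3K27me3 and ATAC only were close to them, at 2.23 and 76.7. The leading genes that were open only, picked by the strength of this peak, had some of the strongest ATAC peaks. Macrod2 had an ATAC fold of 12.1, Ralgapa2 of 11.3, Nmt2 (an N-myristoyltransferase) of 11, Rxylt1 of 10.2 and Ripk2 of 8.47, all at or above the percentile 99.97 of the list. Genes with H3K9ac and ATAC but no H3K27ac included Eif2a with Serp1 and Rwdd4a with Trappc11, each pair sharing 1 promoter region and its peaks, and Copb2. Genes with H3K27ac and ATAC but no H3K9ac included Xpo1 (the nuclear exporter) at an H3K27ac fold of 25.3 and Tiparp at 31.2. In the combination of H3K9ac, H3K27me3 and ATAC the leading genes were Setd3, Lss, Sfrp5, Cabin1 and Kbtbd12. In that of H3K27ac, H3K27me3 and ATAC they were Gpr27, Tnfsf11, Sdk1, Phox2a and Gm36722. Ly75, Sh3bgrl2, Zswim2, Onecut2 and Bnc2 led the combination of H3K27me3 with ATAC, at H3K27me3 folds of 1.56 to 1.69.

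Strong H3K27me3 peaks were few, and a minority of them gathered in windows of 2 Mb that were picked for holding at least 25 each. Of all genes, 79 (0.361%) had an H3K27me3 peak at a q of at most 0.05, and 24 of these lay in 14 windows of 2 Mb that held 497 (30.8%) of the 1613 such peaks; 1278 windows held an H3K27me3 peak of any strength. The strongest at gene ends were on chromosome 11: Sec14l3, which led the genes with H3K27me3 only, had a −log10 p of 13.3 at a fold of 1.21. Sec14l4, Osm, Lif and Gal3st1 near it had −log10 p values of 8.73 to 13.3. In these windows (2 to 6 Mb) the median folds were 1.13 and 1.20 beside median −log10 p values of 8.98 and 8.66, whereas a window on chromosome 2 had a median fold of 2.28 at a median −log10 p of 4.09. A window on chromosome 17 (84 to 86 Mb) held 31 such peaks at a median fold of 1.08 and a median −log10 p of 16.05. Hormad2, also in the chromosome 11 windows, had a fold of 1.03, and Pla2g5, Fbxw26 and Eddm3b, on other chromosomes, had folds of 2.87, 2.70 and 2.66; these 4 genes followed Sec14l3 among the genes with H3K27me3 only.

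A small part of the acetylated genes without an ATAC peak lay in long stretches where the ATAC list was empty. In 35 stretches of at least 100 kb there was no ATAC peak but at least 10 acetyl peaks. They held 88 of the 21887 genes, among them 59 of the 624 acetylated and not open genes (9.46%). The stretches were picked for these traits, so acetylated genes inside them lack ATAC largely by construction. Most of the 624 genes lay outside. On chromosome 19 a stretch of 247.6 kb (chr19:4013415-4261061) held 41 H3K9ac and 34 H3K27ac peaks and no ATAC peak, and 15 neighbouring genes from Cdk2ap2 to Pold4 were the longest row in this state. On chromosome 11 a stretch of 341.5 kb held 47 H3K9ac and 56 H3K27ac peaks. The 8 genes from Usp39 to Mat2a on chromosome 6 lay in another. Why no ATAC peak is listed there was not tested, so the state of these genes is not shown to be closed. Aldoa (glycolytic aldolase; H3K9ac fold 7.20, H3K27ac fold 13.3) and Hyal2 were among the leading genes with both acetyl marks only and lay outside these stretches, and the peaks of Zfp608, another of them, lay inside one; Tmem101, Drg2, Eprs, Usp39 and 0610030E20Rik led the genes with H3K9ac only, and Cox5a, Ly6g6c, Rrh, Cxcl10 and Gpr132 those with H3K27ac only.

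Of the 4545 genes with no peak, 801 (17.6%) were olfactory receptors, 299 (6.58%) were vomeronasal receptors and 842 (18.5%) were on X or Y. The other 2531 (55.7%), leaving out also defensins and keratin-associated proteins, belonged to none of these groups. Of 1106 olfactory receptor genes, 72.4% had no peak, 237 had H3K27me3 and 100 had ATAC; H3K9ac was at 0, which allows a share of up to 0.346% by the Wilson interval. Of 353 vomeronasal receptor genes, 84.7% had no peak and 4 had ATAC. Defensins had no peak in 50 of 70 (71.4%), beside 20.8% of all genes. Of 49 keratins, 39 (79.6%) had H3K27me3 and 28 (57.1%) were open, beside 28.6% and 69.4% of all genes. Keratin-associated proteins had H3K27me3 in 19 of 56 (33.9%), near the share of all genes, and acetylation in 0, beside 53.7%. Replication-dependent histone genes, used in dividing cells, had ATAC in 44 of 63 (69.8%), the share of all genes. They had H3K9ac in 20 (31.7%), beside 49.1%, and H3K27me3 in 0. Neighbouring histone genes formed rows of genes that were open only.

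The X and Y chromosomes held few peaks in all 4 lists. Autosomes had 7.41 ATAC peaks for each protein-coding gene and X had 0.479; for H3K9ac the values were 2.42 and 0.286, and for H3K27me3 5.94 and 0.179. On X, 61.1% of 966 genes had no peak, against 17.9% on autosomes, and on Y 98.4% of 256. Genes such as Gjb1 are therefore not shown to lack the marks. Without X and Y, no state's count moved by over 1.5 times.

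Promoter sequence, which the classification did not use, followed the states. A promoter entry (250 bases before to 50 after the start) was found for 17492 of the 21887 genes. The median ratio of observed to expected CpG was 0.789 for acetylated and open genes, 0.697 for those with H3K27me3 as well, 0.476 for genes open with H3K27me3, 0.446 for open only, 0.182 for H3K27me3 only and 0.165 for no peak, beside 0.577 for all. Of promoters with a ratio below 0.2, 6.96% were acetylated and open without H3K27me3 and 54.5% had no peak, and of those with a ratio of 1 or more, 72.8% and 2.52%. Developmental transcription factors were CpG-rich (0.746) and ribosomal protein genes too (0.863), although acetylation was found at 6.98% of the first and 92.9% of the second. Macrophage (0.228), lymphocyte (0.243) and liver genes (0.219) had CpG-poor promoters.

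The same promoters were searched on both strands for 9 motifs, none of which contains another. The GC box GGGCGG was in 67.5% of acetylated and open promoters and 11.2% of those with no peak, beside 46.3% of all. The TATA box TATAAA showed the reverse order, with 6.24%, 27% and 13.3%. The ETS motif CCGGAAG was in 20.2% of acetylated and open promoters, 4.52% of those open with H3K27me3 and 11.9% of all. The NRF1 motif GCGCATGC was in 6.10%, 2.32% and 3.61% of the same groups and the YY1 motif AAGATGGCG in 3.62%, 0.348% and 1.92%. The cyclic AMP response element TGACGTCA was in 3.66%, 2.15% and 2.33%. The AP-1 motif TGANTCA was in 4.15%, 7.48% and 7.03%, the E-box CAGCTG in 14.5%, 16.9% and 15.1%, and CCAAT in 38.8%, 35.2% and 39.2%. Several of these motifs hold CpG or lie in CpG-rich promoters, and a match is a run of letters, not a bound site.

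Gene length and spacing, also not used by the classification, are given for the same states. The median gene length was 21.6 kb for acetylated and open genes and 5.71 kb for genes with no peak. Another gene's end lay within 2 kb of 48.3% of the acetylated and open genes and of 10.9% of those with no peak, so that 1 peak is often counted for a pair of genes. The next gene on the chromosome was in the same state for 58.2% of acetylated and open genes and for 60.7% of genes with no peak. For the states between them this share was 22.4% for open with H3K27me3, 19.7% for H3K27me3 only and 14.9% for open only, each above the state's share of all genes.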

How the data were processed

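H3K9ac, H3K27ac and H3K27me3 ChIP-seq (2 samples each) and ATAC-seq (3 samples) of sham ganglia were used as the 4 peak lists that the authors deposited, 1 per assay, replicates pooled per the labels. The build is mm10, per the submitters' processing notes; the aligner and peak caller are not given in the sources used here. The authors' columns are, per the file headers and values, a score, a fold enrichment (ratio), −log10 p, −log10 q and a summit position; they were used only within a list. No read depth was given, so none is stated. Sub-peaks with the same start and end in the ATAC list were merged, leaving 153556 of 223066 lines. A gene had an assay if a peak lay within 1 kb of either end of its RefSeq span (GRCm38.p6); exons and inner starts were not used. Overlap was at least 1 bp. Genes were named by rule: in each combination of at least 100 genes, the 5 with the highest value of their lowest percentile of −log10 p within a list, plus members of 29 gene lists. Members and lists were chosen with earlier results of these data known. The classification was tested on simulated peaks. Alternatives were another window, q limits, equal list sizes, the start end only, 1 shared end, and leaving out close neighbours. pandas 2.3.3 and NumPy 2.4.6 were used. Genes with near-identical copies are uncertain. A few genes that the naming rule or the lists cover are not reported here.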

Additional observations from a re-analysis of the deposited data

How the results depend on the processing

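Each count is of genes, out of 21887 unless genes were left out by construction. With a q of at most 0.05 the H3K27me3 genes fell to 79, acetylated and open with H3K27me3 to 33, open with H3K27me3 and not acetylated to 25, H3K27me3 only to 19 and acetylated with H3K27me3 and not open to 2, and open only rose to 4333. With a −log10 q of at least 5 these counts were 7, 1, 2, 4, 0 and 5203, and H3K9ac was at 1919 genes, acetylated and open without H3K27me3 at 5835, acetylated and not open without H3K27me3 at 1063 and no peak at 9779. In lists of equal size (43803 peaks) H3K27me3 was at 2070 genes, acetylated and open with H3K27me3 at 676, open with H3K27me3 at 353, H3K27me3 only at 882, acetylated and not open at 1279 and no peak at 7017. A window of 5 kb gave 11707 H3K27me3 genes, 6981 acetylated and open with H3K27me3, 162 acetylated and not open, 1006 open only and 2663 with no peak, and a window of 200 bp gave 889 acetylated and open with H3K27me3, 738 acetylated and not open and 3079 open only. At the start end only (17492 genes), H3K27me3 was at 3274, with acetylation and ATAC at 826, with ATAC alone at 1307 and with acetylation alone at 67. Requiring 1 shared end left 1224 acetylated and open genes with H3K27me3. Without genes near another gene's end, which leaves fewer genes by construction, counts were 5674 for H3K9ac, 4595 for H3K27ac, 9066 for ATAC, 4559 for acetylated and open, 1416 for the same with H3K27me3 and 270 for acetylated and not open. Further alternatives were chosen after seeing the data. With H3K27me3 peaks of at least 5 kb only, H3K27me3 was at 1350 genes, with acetylation and ATAC at 331, with ATAC at 796, alone at 192, with acetylation at 31, and open only rose to 3264. Without the H3K27ac list, 115 genes were acetylated with H3K27me3 and not open. Leaving out X and Y, the stretches free of ATAC peaks or the strongest quintile of H3K27ac kept all 12 counts within 1.5 times. States with H3K27me3 thus rest on weak peaks.

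No paired analysis was possible because the authors pooled the replicates of each assay into 1 list, and no replicate was left out for the same reason. No read depth is given in these lists, so none was used.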
